A study of Mus musculus with 14 samples.

Results

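The genes described here belong to the oxidative phosphorylation system, most of them as its subunits and 8 as assembly factors of complex I, measured in the mouse hippocampus. They were chosen by name alone, as the protein-coding genes of the mitochondrial genome, the nuclear Nduf, Uqcr, Cox4 to Cox8 and Atp5 families, and the 4 Sdh genes of complex II. The rule found 111 of the 55450 genes in the table, 13 of them mitochondrially encoded and 98 nuclear, after 9 names marked as pseudogenes were left out. All 13 mitochondrially encoded members and 96 of the 98 nuclear members reached 0.5 FPKM in 3 or more libraries and were tested among 18059 genes. FPKM is the number of fragments per kilobase of transcript, scaled to the mapped reads of the library, and a value of 0.0001 is the floor of the table. The 2 untested members were Ndufa11b, at 0.175 FPKM in NG-KO replicate 3 and at the floor in the other 13 libraries, and a second gene model of Atp5o. Of the 111 members, 4 were annotated as processed pseudogenes only (Cox6c2, Ndufb4c, Ndufs6b and Ndufa11b), so their reads may be shared with the parent genes and their values are uncertain.

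The study asked what GPR30, a membrane estrogen receptor encoded by Gper1, does in different cells of the brain. Poly(A) RNA of the hippocampus came from female C57BL/6J mice at 10 weeks of age, 1 library per mouse, from 3 Δ3102, 4 AG-KO, 4 NG-KO and 3 WT mice. Δ3102 mice carried a CRISPR/Cas9 deletion of Gper1 in all cells, AG-KO mice carried GPR30 fl/fl with GFAP-Cre, directed at astrocytes, and NG-KO mice carried GPR30 fl/fl with NSE-Cre, directed at neurons. WT mice were the only controls used here, so the effect of a Cre transgene or a floxed allele cannot be told apart from that of the loss of GPR30. In RNA of a whole tissue, fewer cells of a type and less RNA per cell cannot be told apart either.

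Oxidative phosphorylation makes most of the ATP of neurons. Complexes I to IV pass electrons from NADH and succinate to oxygen, and complexes I, III and IV pump protons across the inner mitochondrial membrane. The ATP synthase, complex V, makes ATP from their return. The mitochondrial genome, transcribed as long precursors that are cut into single messages, encodes a few hydrophobic subunits of complexes I, III, IV and V, while the nuclear genome encodes the rest and the whole of complex II.

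The mitochondrial genes lie close together and some share bases, so reads at these places fall on a pair of genes and the values of these pairs are uncertain. The 3 longer overlaps are shown because results below concern such pairs, and mt-Atp6 and mt-Co3 share 1 further base at position 8607. They are from GENCODE vM21 on GRCm38, read on the plus strand, with the shared bases in capitals. The end of mt-Atp8 and the start of mt-Atp6 share 43 bases within chrM:7887-8009, the end of mt-Nd4l and the start of mt-Nd4 share 7 bases within chrM:10147-10193, and mt-Nd5 shares 14 bases with mt-Nd6, which is read from the opposite strand, within chrM:13532-13585.
mt-Atp8 and mt-Atp6: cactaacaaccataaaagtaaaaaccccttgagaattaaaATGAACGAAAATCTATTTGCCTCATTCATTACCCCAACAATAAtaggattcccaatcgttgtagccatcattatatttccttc
mt-Nd4l and mt-Nd4: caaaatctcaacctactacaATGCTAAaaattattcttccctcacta
mt-Nd5 and mt-Nd6: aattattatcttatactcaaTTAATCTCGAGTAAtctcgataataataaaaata

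Mitochondrial messages were read here through a selection for poly(A) tails, and in some of them the tail also completes the stop codon. In the annotation mt-Co3, mt-Nd4 and mt-Cytb each end in 1 base beyond the last whole codon. Their last 40 bases are shown with that base, the start of a stop codon, in capitals, at chrM:9351-9390, chrM:11505-11544 and chrM:15249-15288 on the plus strand.
mt-Co3: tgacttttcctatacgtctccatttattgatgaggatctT
mt-Nd4: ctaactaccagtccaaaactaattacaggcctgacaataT
mt-Cytb: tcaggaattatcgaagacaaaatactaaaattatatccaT

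The libraries held 44527024 to 62669865 counts. The targeted gene, Gper1, lay at 0.0124 to 0.145 FPKM in Δ3102, 0.540 to 1.38 in AG-KO, 0.975 to 1.41 in NG-KO and 0.797 to 3.05 in WT, lowest in the global knockout, while the conditional knockouts overlapped WT. Neuronal markers summed to 617 to 749 FPKM and astrocyte markers to 129 to 204 FPKM. Markers of tissues outside the brain differed between mice of the same genotype, with sums of 4.48 to 556 FPKM for 6 skeletal muscle genes, 1.88 to 478 FPKM for 7 hepatocyte genes and 0.140 to 198 FPKM for 6 testis genes. AG-KO replicates 3 and 4 stood apart from the other 12 libraries in the genes described here, so results are given with and without them. These 2 mice also had the highest sums of microglial markers, at 44.1 and 37.5 FPKM against 28.0 to 36.0 in the others, and of endothelial markers, at 32.1 and 35.2 FPKM against 19.8 to 29.9. The microglial sum of AG-KO replicate 3 rested on Cx3cr1, at 10.0 FPKM there, 8.54 in NG-KO replicate 2 and 1.37 to 2.78 in the others. Of the other microglial markers P2ry12 was highest in AG-KO replicate 4 (7.65 FPKM). Csf1r was highest in NG-KO replicate 1 (18.3 FPKM) and Tmem119 in WT replicate 1 (10.4 FPKM). The part of microglia or endothelium in the values below was not tested.

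AG-KO replicates 3 and 4 had more RNA of the mitochondrially encoded members and less of the nuclear members than any other mouse. The 13 mitochondrially encoded members summed to 28847, 40691, 56007 and 59706 FPKM in AG-KO replicates 1 to 4, 35534, 39266 and 34237 FPKM in Δ3102, 47716, 43308, 39279.7 and 34365 FPKM in NG-KO and 42112, 38239.9 and 37398 FPKM in WT. AG-KO replicate 1 had the lowest sum of all, so the AG-KO mice held both extremes. The 98 nuclear members summed to 7057, 7030.3, 4735 and 5061 FPKM in AG-KO, 7382, 7126 and 6898 FPKM in Δ3102, 6573, 7338, 6914 and 7447 FPKM in NG-KO and 7379, 6784 and 7181 FPKM in WT. The ratio of the mitochondrial to the nuclear sum was 11.8 and 11.8 in AG-KO replicates 3 and 4, against 4.09 to 7.26 in the other 12 mice. Of all counts, mitochondrially encoded members took 3.17 to 6.69% and nuclear members 0.931 to 1.36%.

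**Figure D1:**
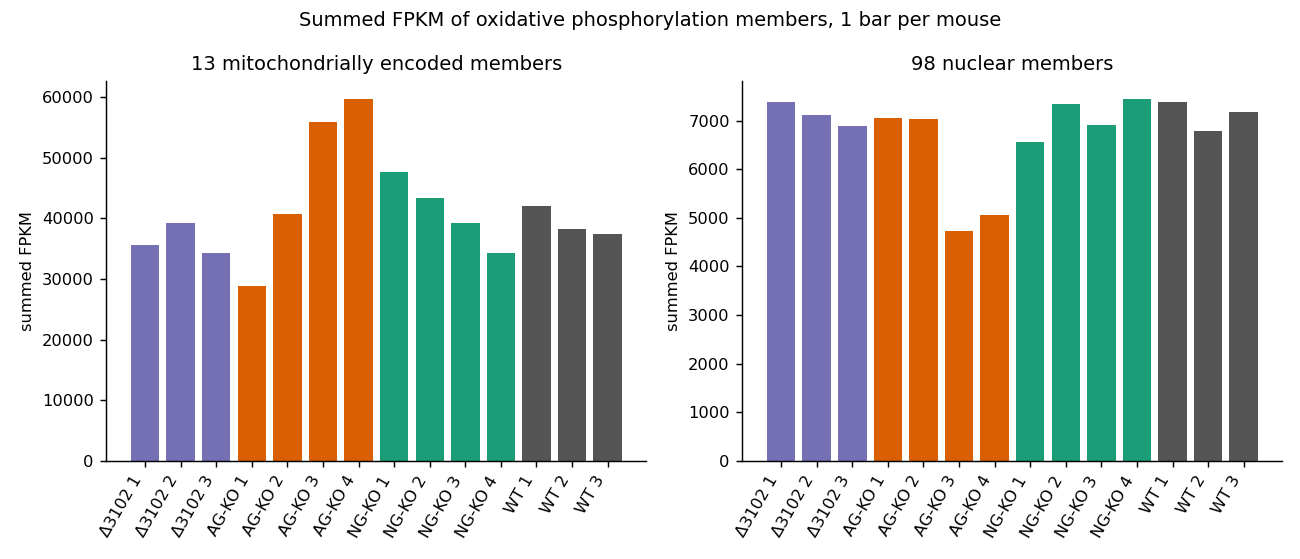
Summed FPKM of the 13 mitochondrially encoded members and of the 98 nuclear members, 1 bar per mouse, coloured by genotype. AG-KO replicates 3 and 4 have the highest mitochondrial sums, 56007 and 59706 FPKM, and the lowest nuclear sums, 4735 and 5061 FPKM.

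On a log2 scale this ratio averaged 2.35 ± 0.10 (SD, n = 3) in Δ3102, 2.92 ± 0.77 (SD, n = 4) in AG-KO, 2.53 ± 0.27 (SD, n = 4) in NG-KO and 2.46 ± 0.07 (SD, n = 3) in WT. The mean of AG-KO mice exceeded that of WT mice by less than the spread among AG-KO mice. Without AG-KO replicates 3 and 4 the difference between AG-KO and WT was -0.18, on the other side of 0.

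The mitochondrially encoded members kept nearly the same order in every mouse. mt-Co1, the catalytic core of complex IV, was the highest in all 14 libraries, at 7265 to 14571 FPKM and 23.8 to 28.0% of the mitochondrial sum. mt-Co3, of the same complex, came next in all 14, at 4545 to 7621 FPKM. The third complex IV gene, mt-Co2, lay at 3221 to 5818 FPKM, and mt-Cytb, the only complex III gene of this genome, at 2256 to 5892 FPKM. The ATP synthase genes differed from each other, with 2297 to 6229 FPKM for mt-Atp8 and 611 to 1494 FPKM for mt-Atp6. Of the complex I genes, mt-Nd1 lay at 2283 to 4738 FPKM, mt-Nd2 at 1543 to 3562 FPKM and mt-Nd4 at 1109 to 3154 FPKM. mt-Nd5, a proton-pumping subunit of complex I, was the lowest in 11 of the 14 libraries. In AG-KO replicates 3 and 4 the lowest was mt-Nd3, a small subunit of the same complex, and in AG-KO replicate 1 it was mt-Nd4l.

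mt-Nd3 went against the other mitochondrial genes in AG-KO replicates 3 and 4. It was at 1284, 1449, 808 and 961 FPKM in AG-KO, 1234, 1332 and 1177 FPKM in Δ3102, 1679, 1535, 1438 and 1319 FPKM in NG-KO and 1412, 1309 and 1271 FPKM in WT, so AG-KO replicates 3 and 4 were below every other mouse. The gene lies at chrM:9459-9806 and is 348 bases long, between mt-Co3 and mt-Nd4l among the protein-coding genes. mt-Nd4l, the shortest complex I gene of this genome, was at 587, 841, 2127 and 2321 FPKM in AG-KO, against 877, 875 and 703 FPKM in WT. mt-Nd5 was at 642, 731, 1744 and 1907 FPKM in AG-KO, against 869, 830.2 and 691 FPKM in WT. mt-Nd6, the only member read from the other strand, was at 839.9, 973, 2049 and 2179.7 FPKM in AG-KO, against 1181, 1010.4 and 889.8 FPKM in WT. For these last 3 genes AG-KO replicates 3 and 4 were above all other mice.

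The size of the difference varied among the mitochondrial genes. As log2 values against the mean of WT, mt-Nd4l, mt-Nd5 and mt-Nd6 were at 1.39, 1.14 and 1.01 in AG-KO replicate 3 and at 1.51, 1.27 and 1.10 in AG-KO replicate 4. mt-Co3 was at 0.04 and 0.19 in these 2 mice. Its share of the mitochondrial sum was 11.1 and 11.5% there, against 13.7 to 18.4% in the other mice. The ratio of mt-Nd4l to mt-Nd4, which share bases, was 0.709 and 0.736, against 0.474 to 0.556 in the others. The ratio of mt-Atp8 to mt-Atp6, which share more bases, was 4.15 and 4.17, within the 3.76 to 4.24 of the others. The 2 mitochondrial rRNAs, which are not members, took 0.495 and 0.469% of the counts in AG-KO replicates 3 and 4, the lowest shares of the 14 libraries, against 0.508 to 0.648% elsewhere.

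**Figure D2:**
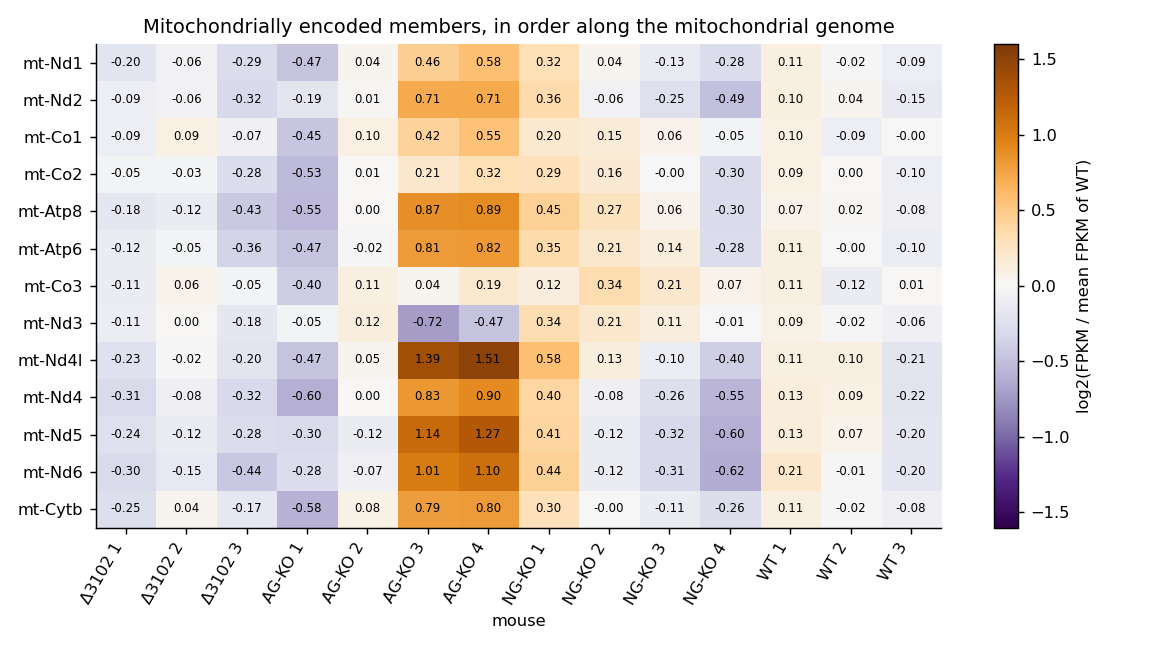
Log2 of the FPKM of each mitochondrially encoded member over its mean in WT mice, by gene and mouse. AG-KO replicates 3 and 4 are above 0 for all genes but mt-Nd3, at -0.72 and -0.47, while AG-KO replicate 1 is below 0 for all 13.

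Other mice also had most of their mitochondrial genes on 1 side of WT. NG-KO replicate 1 had all 13 above every WT mouse, against 21.1% of all tested genes, with a median log2 value of 0.35. AG-KO replicate 1 had 12 of the 13 below every WT mouse, against 26.5%, with a median of -0.47. NG-KO replicate 4 and Δ3102 replicate 3 each had 10 of the 13 below every WT mouse, against 29.9% and 24.5%. Δ3102 replicate 1 had 9 below, against 25.8%. WT mice also differed among themselves. WT replicate 1 had all 13 above the other 2 WT mice, against 27.0% of all tested genes. WT replicate 3 had 11 below the other 2, against 30.4%. Mice of 1 genotype therefore lay on both sides of WT in AG-KO and NG-KO.

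The nuclear members were low together in AG-KO replicates 3 and 4. In these 2 mice 87 and 84 of the 96 tested nuclear members were below all 3 WT mice, against 37.1% and 36.9% of all tested genes. Of the 13 mitochondrially encoded members, 11 and 12 were above all WT mice, against 23.4% and 24.6% of all tested genes. The median log2 value of the nuclear members against WT was -0.55 and -0.50 in AG-KO replicates 3 and 4, while AG-KO replicates 1 and 2 were at -0.02 and -0.05. Over all tested genes it was -0.08 and -0.07 in AG-KO replicates 3 and 4.

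The difference of the nuclear members went with the length of the spliced transcript, taken as the median over the annotated transcripts of a gene. In AG-KO replicates 3 and 4 the 6 nuclear members of 231 to 390 bases had median log2 values of -0.89 and -0.87 against WT. This class held the muscle isoform Cox8b (-5.35 and -7.71), Atp5k (-1.22 and -1.19) and Ndufa6 (-0.55 and -0.56). Its other members were processed pseudogenes of uncertain value, Cox6c2 (-2.26 and -1.73), Ndufb4c (-0.43 and 0.34) and Ndufs6b (0.08 and -0.31). The 28 members with lengths between this class and the next had -0.72 and -0.78, with the tissue isoforms Cox8c, Cox7a1, Cox7b2 and Cox6b2 among them. The 24 members of 604 to 870 bases had -0.61 and -0.53, the 20 members of 908 to 1487 bases had -0.47 and -0.35, and the 17 members of 1528 to 2900 bases had -0.32 and -0.21. The remaining member, the assembly factor Ndufaf4 with 3632 bases, was at -0.17 and -1.83, so in AG-KO replicate 4 it was low although its transcript is long, and over the 14 mice it lay between -1.83 and 0.51. Over all tested genes of the first 5 classes the values were -0.43 and -0.38, -0.60 and -0.53, -0.38 and -0.34, -0.26 and -0.22, and -0.09 and -0.07, so short transcripts outside the family were low in these 2 mice as well. Over the 96 nuclear members Spearman's rho between length and the log2 value was 0.475 and 0.488, against 0.316 and 0.270 over all 18059 genes. These are correlations across genes of 1 library, which are not independent replicates. In the other 9 knockout mice rho over the members lay between -0.00854 and 0.358. The median log2 values of the 3 mitochondrially encoded members of 204 to 348 bases were 0.87 and 0.89. In this class mt-Nd3 was at -0.72 and -0.47, below WT like most short nuclear members. mt-Nd6, with 519 bases, was at 1.01 and 1.10. The 3 members of 681 to 784 bases had medians of 0.21 and 0.32. The 4 members of 957 to 1378 bases had 0.75 and 0.76, and the 2 of 1545 to 1824 bases had 0.78 and 0.91. The part of transcript length in the difference between the 2 genomes was not tested. The part of RNA quality in these values was not tested.

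**Figure D3:**
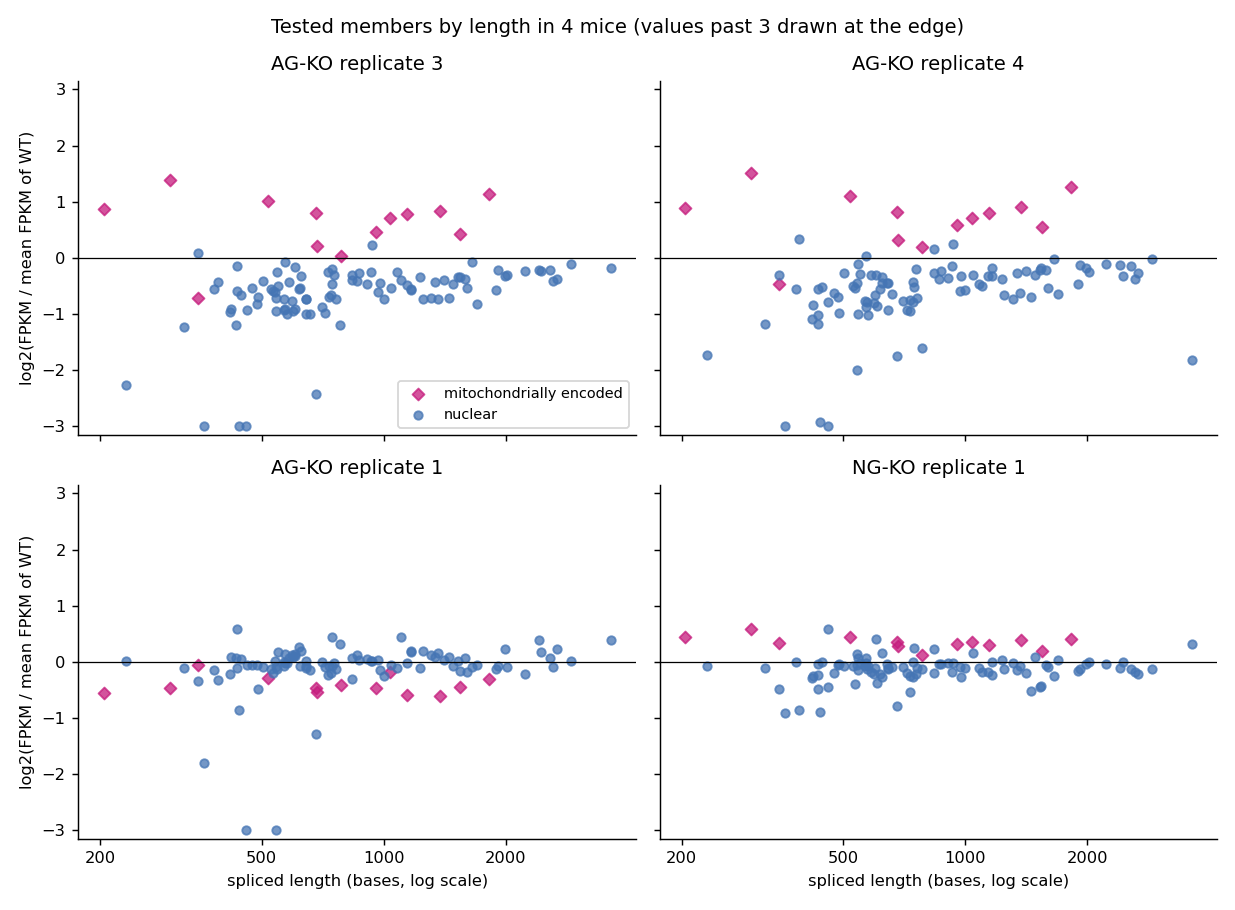
Log2 of FPKM over the mean of WT mice against spliced length in bases on a log scale, for the tested members in AG-KO replicates 3, 4 and 1 and NG-KO replicate 1, with values past 3 drawn at the edge. In AG-KO replicates 3 and 4 most nuclear members lie below 0, more so among short transcripts, while 12 of the 13 mitochondrially encoded members lie above 0.

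The medians of the 8 groups by role below were all negative in AG-KO replicates 3 and 4. They were -0.61 and -0.56 for the 31 genes listed as accessory subunits of complex I, with a median length of 645 bases. Accessory subunits surround its core, and this list also held the processed pseudogenes Ndufb4c and Ndufs6b. The medians were -0.41 and -0.30 for the 7 nuclear core subunits, which carry its cofactors, with a median length of 1312 bases. They were -0.33 and -0.25 for the 4 subunits of complex II, -0.57 and -0.53 for the 8 nuclear subunits of complex III and -0.67 and -0.54 for the 12 widespread subunits of complex IV. In the ATP synthase they were -0.67 and -0.53 for the 11 tested genes of the membrane part and peripheral stalk, and -0.26 and -0.15 for the 5 genes of the catalytic head and central stalk. The 8 assembly factors of complex I, which help to build it and leave, were at -0.36 and -0.40. In AG-KO replicates 1 and 2 the medians of these 8 groups lay between -0.13 and 0.09.

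Among nuclear members the highest levels were those of complex IV and ATP synthase genes. Cox6b1, a subunit on the outer face of complex IV, averaged 451 FPKM over the 14 mice, Cox8a 315 FPKM and Cox6a1 286 FPKM. The ATP synthase subunits alpha (Atp5a1) and beta (Atp5b) averaged 279 and 247 FPKM. The lowest tested were Cox4i2 at 1.92 FPKM, Cox8c at 1.63 FPKM and Cox7b2 at 0.605 FPKM. The steadiest were Cox6a1, with a coefficient of variation of 4.16% over the 14 mice, Sdha, the flavoprotein of complex II, at 6.14%, Atp5b at 6.29%, Uqcrc1, a core protein of complex III, at 7.07% and Atp5d, a central stalk subunit, at 7.51%. Cox6a1 lay at 262 to 304 FPKM, although its transcript of 571 bases is short. The most variable were Cox8c, Cox7b2, Cox7a1, Cox8b and Cox6a2, all tissue isoforms of complex IV, at 74.2% to 124%.

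In Δ3102 against WT, no member passed the test. At an adjusted p under 0.05 (edgeR's quasi-likelihood test, Benjamini-Hochberg over 18059 genes) 0 of the 109 tested members were called, against 0.0111% of all tested genes, and 0 were at an unadjusted p under 0.05, against 4.45%. DESeq2 and limma also called 0. The 13 mitochondrially encoded members all had negative log2 fold changes, from -0.30 (mt-Nd6) to -0.02 (mt-Co1), with a median of -0.15, against 0.01 for the 96 nuclear members. The mitochondrial sums of the 2 genotypes overlapped, at 35534, 39266 and 34237 FPKM in Δ3102 and 42112, 38239.9 and 37398 FPKM in WT.

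In AG-KO against WT, most nuclear members had lower values and most mitochondrially encoded members higher ones, but no member passed the adjusted test and the pattern rested on AG-KO replicates 3 and 4. edgeR called 0 of 109 members at an adjusted p under 0.05, against 0.0221% of all genes. At an unadjusted p under 0.05 there were 29 members (26.6%), all nuclear and all lower, against 14.4% of all genes in either direction and 7.74% lower. The median log2 fold change was -0.22 for the nuclear members, 89 of 96 of them negative, and 0.42 for the mitochondrially encoded members, 12 of 13 of them positive. Over all genes it was -0.01. DESeq2 called 4 of 109 members at an adjusted p under 0.05 (Atp5mpl, Ndufs1, Cox6a2 and Cox7a1), against 408 of all 18059 genes. With limma 0 members were called.

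Without AG-KO replicates 3 and 4, 7 members (6.42%) were at an unadjusted p under 0.05, against 7.42% of all genes. The median log2 fold change was then -0.03 for the nuclear and -0.19 for the mitochondrially encoded members, so the direction of the mitochondrial genes was turned round. With a correction for transcript length in the fit of all 14 libraries, it was -0.07 for the nuclear and 0.55 for the mitochondrially encoded members, and 13 members were at an unadjusted p under 0.05, 11.9% against 13.5% of all genes. Fitted with the AG-KO and WT mice alone, 13 members (11.9%) were at an unadjusted p under 0.05, against 11.9% of all genes. The count of 29 also moved when 1 library was left out. It was 57, 47, 14 and 10 without AG-KO replicates 1 to 4 in turn, 9 without WT replicate 1 and 19 without WT replicate 3. The share of the members was below that of all genes without AG-KO replicate 4 (9.17% against 10.1%) and without WT replicate 1 (8.26% against 11.0%), and above it without each of the other 4.

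**Figure D4:**
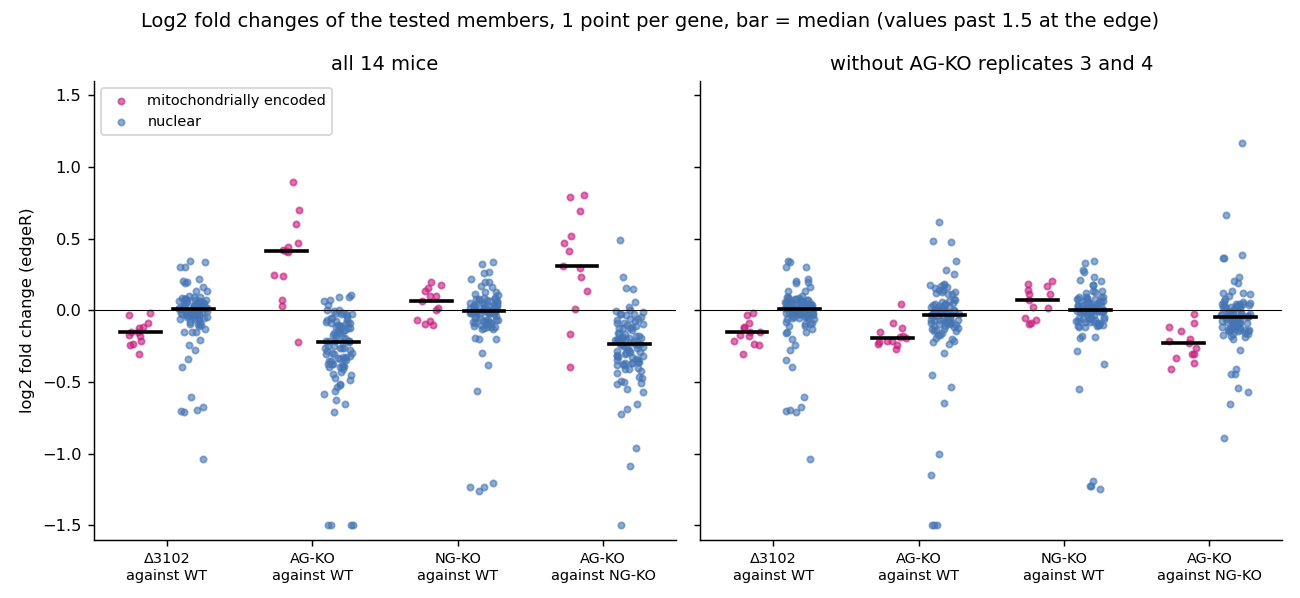
Log2 fold changes from edgeR of the 109 tested members, 1 point per gene, by genome and comparison, with bars at the medians and values past 1.5 drawn at the edge, for all 14 mice and without AG-KO replicates 3 and 4. In AG-KO against WT the medians are 0.42 (mitochondrial) and -0.22 (nuclear) with all mice, and -0.19 and -0.03 without these 2.

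By role, the members at an unadjusted p under 0.05 in AG-KO against WT came from most complexes. They were 8 of 31 accessory and 2 of 7 core subunits of complex I, with medians of -0.26 and -0.21, 2 of 4 in complex II (-0.10) and 4 of 8 in complex III (-0.26). There were 4 of 12 widespread subunits of complex IV (-0.30) and 6 of 11 genes of the membrane part and peripheral stalk of the ATP synthase (-0.30). None of the 5 genes of its head and central stalk (-0.09) or of the 8 assembly factors of complex I (-0.14) was among them. The other 3 were the muscle isoforms Cox6a2, Cox7a1 and Cox8b, of 8 tissue isoforms in all (-1.28). Of all tested genes 14.4% were at an unadjusted p under 0.05 in either direction and 7.74% were so and lower. Groups as small as these can hold none at such shares, and differences between roles were not tested.

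Atp5mpl, a small proteolipid of the ATP synthase on chromosome 12, had the smallest p of all members in AG-KO against WT. It was at 39.5, 36.4, 33.9 and 27.6 FPKM in AG-KO, against 58.1, 54.0 and 52.7 FPKM in WT. All 4 AG-KO mice were below all WT mice, as the rule for naming members by p required. Below all WT mice was also 1 of the Δ3102 mice, which were at 59.1, 58.1 and 35.5 FPKM. The log2 fold change was -0.65 (SE 0.16) with an adjusted p of 0.135 (edgeR). Without AG-KO replicates 3 and 4 it was -0.53, with the length correction it was -0.35, and over all alternatives the adjusted p lay between 0.0131 and 0.557.

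Ndufs1, the largest core subunit of complex I, was at 19.5, 16.8, 15.6 and 15.9 FPKM in AG-KO, against 20.3, 20.3 and 21.6 FPKM in WT. The log2 fold change was -0.26 (SE 0.07) with an adjusted p of 0.168 (edgeR). Its transcript is 2626 bases long, and the value was -0.28 with the length correction and -0.19 without AG-KO replicates 3 and 4. Cox7b, a subunit of complex IV, was at 108, 121, 77.5 and 87.1 FPKM in AG-KO, against 131, 122 and 135 FPKM in WT. Its log2 fold change was -0.37 (SE 0.11) with an adjusted p of 0.185 (edgeR), and -0.17 without AG-KO replicates 3 and 4. The groups did not overlap in either gene, which was a condition for naming them and not a result. The share of all genes without overlap was not counted.

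Atp5f1, subunit b of the peripheral stalk, was at 56.1, 58.5, 43.2 and 43.6 FPKM in AG-KO, against 65.8, 60.5 and 63.2 FPKM in WT. Its log2 fold change was -0.30 (SE 0.09) with an adjusted p of 0.197 (edgeR), and -0.14 without AG-KO replicates 3 and 4. Uqcrb, a subunit of complex III, was at 74.4, 80.1, 56.6 and 59.2 FPKM in AG-KO, against 86.1, 83.9 and 87.1 FPKM in WT. Its log2 fold change was -0.32 (SE 0.10) with an adjusted p of 0.208 (edgeR). It was -0.04 with the length correction and -0.15 without AG-KO replicates 3 and 4. In each of the 5 genes from Atp5mpl to Uqcrb the lowest 2 of the 14 mice were AG-KO replicates 3 and 4. Among the mitochondrially encoded members mt-Nd4l had the smallest adjusted p, 0.350 (edgeR), with a log2 fold change of 0.89, and -0.19 without AG-KO replicates 3 and 4.

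In NG-KO against WT, the medians of both genomes were near 0. edgeR called 0 of 109 members at an adjusted p under 0.05, against 0.072% of all genes, as did DESeq2 and limma. At an unadjusted p under 0.05 there were 3 members (2.75%), against 9.16% of all genes. The median log2 fold change was -0.01 for the nuclear and 0.06 for the mitochondrially encoded members, with -0.02 over all genes. Without NG-KO replicate 1, which had the highest mitochondrial sum of its group, the mitochondrial median minus the nuclear median was -0.14, against 0.07 with it. The count of 3 members was 5 without that mouse and 5 without AG-KO replicate 1, which shares the fit. Both are 4.59%, against 10.8% and 9.62% of all genes.

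Uqcrb was lower and Ndufa12 higher in NG-KO at an unadjusted p under 0.05. Uqcrb was at 65.4, 72.0, 67.7 and 72.4 FPKM in NG-KO, against 86.1, 83.9 and 87.1 FPKM in WT. The groups were apart, a condition for naming both genes, and the log2 fold change was -0.29 (SE 0.10) with an adjusted p of 0.405 (edgeR). Ndufa12, an accessory subunit of complex I, was at 39.5, 43.2, 43.1 and 42.2 FPKM in NG-KO, against 35.2, 31.7 and 33.7 FPKM in WT. The groups were again apart, and the log2 fold change was 0.33 (SE 0.12) with an adjusted p of 0.416 (edgeR). The third such member was Cox6a2, described with the muscle isoforms.

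In AG-KO against NG-KO, both conditional knockouts, the same AG-KO mice gave a like picture. edgeR called 0 of 109 members at an adjusted p under 0.05, against 0.111% of all genes. At an unadjusted p under 0.05 there were 32, against 14.1% of all genes. Of these 30 were lower, against 6.84% of all genes, and 2 were higher, against 7.3%. The median log2 fold change was -0.24 for the nuclear and 0.31 for the mitochondrially encoded members. Without AG-KO replicates 3 and 4 the medians were -0.04 and -0.22, and 7 members were at an unadjusted p under 0.05, against 7.45% of all genes. With the length correction the medians were -0.14 for the nuclear and 0.53 for the mitochondrially encoded members, and 23 members (6 higher, 17 lower) were at an unadjusted p under 0.05, 21.1% against 13.1% of all genes. DESeq2 called 3 of 109 members (Atp5mpl, Sdhd and Cox7b), against 430 of all 18059 genes, and limma called 0 members. The count of 32 was 60, 51, 12 and 12 without AG-KO replicates 1 to 4 in turn, 20 without NG-KO replicate 2 and 17 without NG-KO replicate 4. The lowest of these, with AG-KO replicate 3 or replicate 4 left out, were 11.0% against 9.30% and 11.0% against 10.2% of all genes. With AG-KO replicate 1 or replicate 2 left out the shares were 55.0% against 15.6% and 46.8% against 18.9%. With NG-KO replicate 2 or replicate 4 left out they were 18.3% against 11.9% and 15.6% against 11.4%.

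Atp5mpl, at the values given above in AG-KO, was at 53.8, 53.2, 51.4 and 59.7 FPKM in NG-KO, a log2 fold change of -0.65 (SE 0.15) with an adjusted p of 0.111 (edgeR). Without AG-KO replicates 3 and 4 it was -0.54. Sdhd, a membrane anchor of complex II, was at 67.2, 69.4, 57.3 and 55.7 FPKM in AG-KO, against 74.2, 79.1, 72.4 and 76.1 FPKM in NG-KO. Its log2 fold change was -0.26 (SE 0.07) with an adjusted p of 0.139 (edgeR), and -0.16 without AG-KO replicates 3 and 4. Ndufa12 was at 27.0, 37.1, 27.3 and 37.6 FPKM in AG-KO, against 39.5, 43.2, 43.1 and 42.2 FPKM in NG-KO. Its log2 fold change was -0.36 (SE 0.11) with an adjusted p of 0.191 (edgeR), and -0.41 without AG-KO replicates 3 and 4. The low AG-KO mice for Ndufa12 were replicates 1 and 3, unlike for the genes described so far.

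Ndufs3, a core subunit of complex I, was at 38.0, 35.9, 27.0 and 31.8 FPKM in AG-KO, against 44.1, 41.6, 38.1 and 39.4 FPKM in NG-KO, with a log2 fold change of -0.28 (SE 0.09) and an adjusted p of 0.185 (edgeR). Cox5b, a zinc-binding subunit of complex IV, was at 99.4, 94.8, 75.5 and 77.4 FPKM in AG-KO, against 105, 101, 102 and 109 FPKM in NG-KO, with a log2 fold change of -0.25 (SE 0.08) and an adjusted p of 0.186 (edgeR). Cox6b1 was at 455, 448, 267 and 293 FPKM in AG-KO, against 459, 493, 467 and 533 FPKM in NG-KO, with a log2 fold change of -0.41 (SE 0.14) and an adjusted p of 0.227 (edgeR). The groups did not overlap in any of these 3 genes, which was a condition for naming them. Without AG-KO replicates 3 and 4 their log2 fold changes were -0.16, -0.12 and -0.13. Of the mitochondrially encoded members, mt-Nd5 (0.80), mt-Nd6 (0.70) and mt-Nd3 (-0.40) were at an unadjusted p under 0.05. Their adjusted p-values were 0.301, 0.337 and 0.243 (edgeR), and the groups overlapped. Their log2 fold changes without AG-KO replicates 3 and 4 were -0.12, -0.09 and -0.15, so those of mt-Nd5 and mt-Nd6 changed sign.

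The muscle isoforms of complex IV varied widely between mice of every genotype. Cox6a2, Cox7a1 and Cox8b take the place of Cox6a1, Cox7a2 and Cox8a in heart and skeletal muscle. Cox6a2 was at 20.97, 12 and 11.8 FPKM in Δ3102, 8.35, 6.64, 3.72 and 6.04 FPKM in AG-KO, 11.9, 16.4, 2.93 and 8.98 FPKM in NG-KO and 38.5, 8.80 and 25.3 FPKM in WT. All AG-KO mice were below all WT mice, narrowly (8.35 against 8.80 FPKM), as the rule for naming members by p required. The log2 fold change was -1.94 (SE 0.53) with an adjusted p of 0.174 (edgeR). It was -1.69 without AG-KO replicates 3 and 4. In NG-KO against WT it was -1.26, with overlapping groups and an adjusted p of 0.496 (edgeR). Cox8b was at 20.8, 18.2 and 14.01 FPKM in Δ3102, 5.91, 7.49, 0.415 and 0.0001 FPKM in AG-KO, 11.1, 16.3, 4.66 and 7.33 FPKM in NG-KO and 37.9, 11.8 and 20.2 FPKM in WT. Cox7a1 was at 11.7, 7.23 and 6.93 FPKM in Δ3102, 5.95, 2.67, 0.908 and 1.34 FPKM in AG-KO, 5.82, 9.47, 1.86 and 6.06 FPKM in NG-KO and 23.8, 3.86 and 13.7 FPKM in WT. WT replicate 1 was the highest of all mice for the 3 genes.

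Markers of muscle and heart differed between the same mice. The 3 heart markers (Myh6, Actc1 and Nppa) summed to 77.6, 21.6 and 1.47 FPKM in Δ3102, 27.2, 2.77, 0.487 and 0.769 FPKM in AG-KO, 22.5, 49.8, 0.378 and 24.4 FPKM in NG-KO and 128, 2.05 and 78.3 FPKM in WT, again highest in WT replicate 1. The 6 skeletal muscle markers summed to 397, 452 and 556 FPKM in Δ3102, 99.0, 206, 5.29 and 4.48 FPKM in AG-KO, 165, 177, 88.8 and 8.12 FPKM in NG-KO and 418, 327 and 18.2 FPKM in WT. Ckm, the muscle creatine kinase, and Actc1, the cardiac actin, were at the floor in AG-KO replicates 3 and 4, which also had the lowest Cox7a1 and Cox8b. The part of RNA from muscle or heart in these isoforms was not tested. Cox6a2 amounted to 1.01% to 13.6% of its partner Cox6a1, Cox7a1 to 1.45% to 18.9% of Cox7a2 and Cox8b to at most 11.7% of Cox8a.

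**Figure D5:**
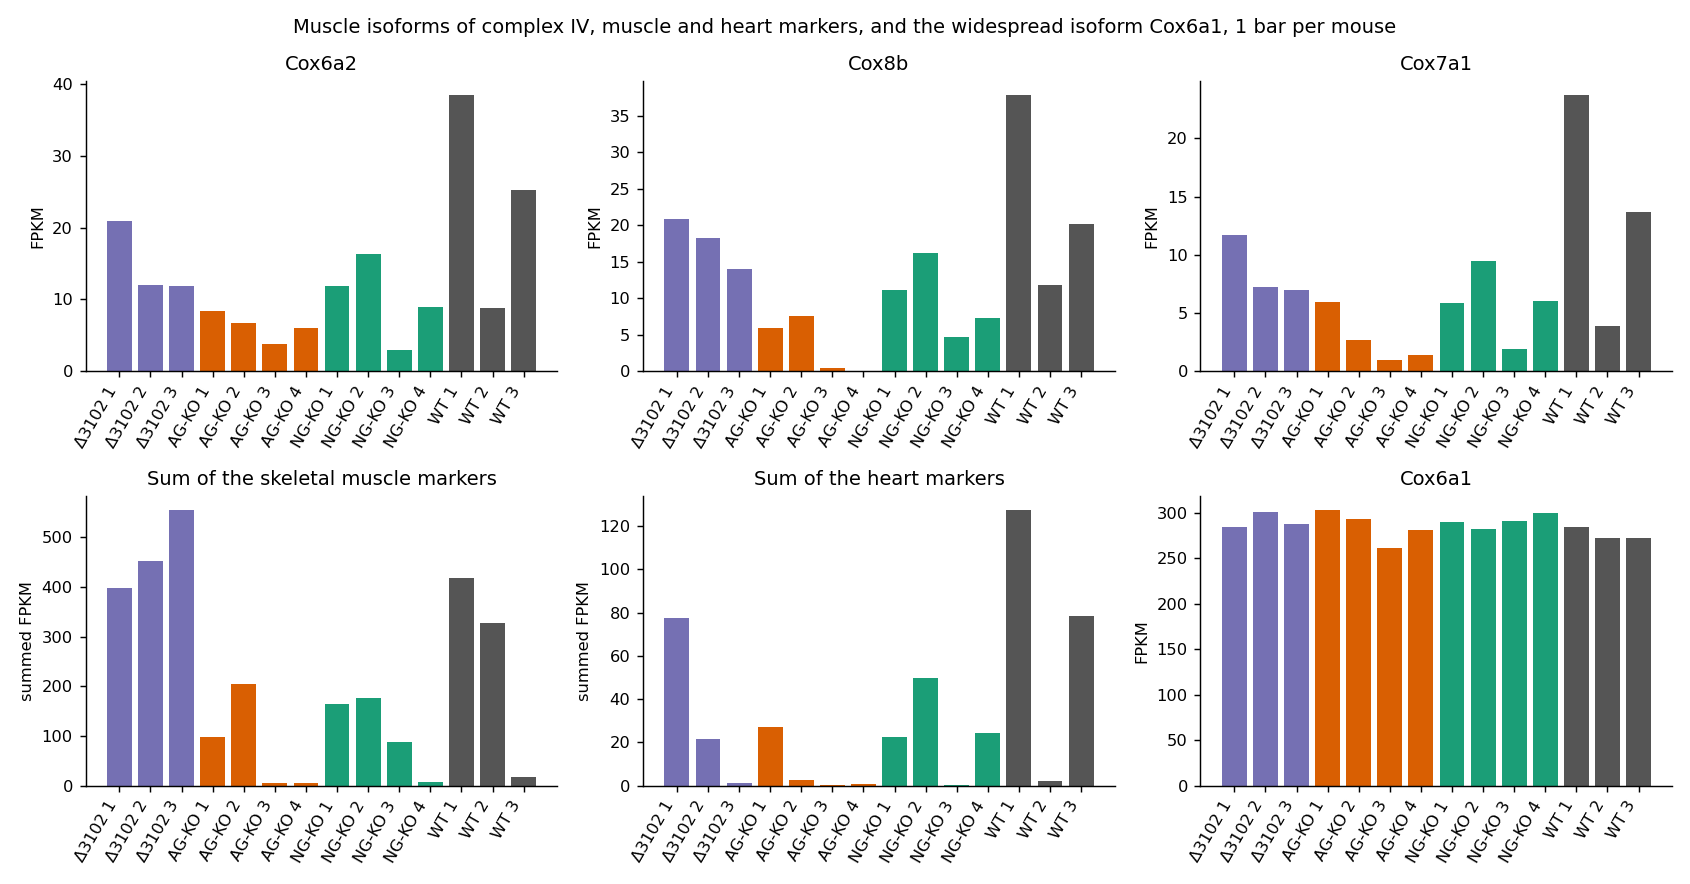
FPKM of the muscle isoforms Cox6a2, Cox8b and Cox7a1, of the summed skeletal muscle and heart markers and of the widespread isoform Cox6a1, 1 bar per mouse, coloured by genotype. The isoforms and the heart markers are highest in WT replicate 1, at 38.5, 37.9, 23.8 and 128 FPKM, while Cox6a1 lies at 262 to 304 FPKM.

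A testis isoform was found in some mice of each genotype, although all were labelled female. Cox8c was at 4.74 FPKM in Δ3102 replicate 3, 2.86 FPKM in AG-KO replicate 2, 2.42, 2.40 and 0.679 FPKM in NG-KO replicates 1, 3 and 4 and 5.51 and 4.08 FPKM in WT replicates 2 and 3. It was at most 0.0997 FPKM in the other 7 mice. The protamine gene Prm2, a testis marker, was at 10.7 to 41.3 FPKM in the 7 mice with Cox8c and at most 0.703 FPKM in the others. Of the 6 testis markers, Prm2, Tnp1, Tnp2, Odf1 and Smcp were each higher in all mice with Cox8c than in any without it. Prm1, the other protamine gene, was not, and was at 21.4, 6.90 and 21.8 FPKM in AG-KO replicates 1, 3 and 4, which had Cox8c at the floor. The part of RNA from testis in these values was not tested. Cox7b2 was at most 2.25 FPKM and Cox6b2 lay at 1.32 to 4.16 FPKM.

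Some widespread isoforms stood out in single mice. Cox4i1 was at 357 FPKM in AG-KO replicate 2, against 186 to 271 FPKM in all others, and its isoform Cox4i2 amounted to 0.350% to 1.76% of it. Cox7a2l, which helps to join complexes III and IV, was at 97.1, 103, 54.6 and 50.2 FPKM in AG-KO, against 66.9, 74.3 and 73.2 FPKM in WT, so the AG-KO mice lay on both sides of WT. Cox7a2 was at 107, 113, 59.1 and 76.1 FPKM in AG-KO, against 126, 116 and 114 FPKM in WT. Ndufa4, a complex IV subunit long counted to complex I, was at 152 FPKM in NG-KO replicate 2 and 152 FPKM in WT replicate 3, and at 54.5 to 100.5 FPKM in the other 12. Its paralog Ndufa4l2 lay at 2.07 to 4.40 FPKM.

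Genes of the same pathway outside the family were taken from 9 lists, of which none held a gene at an adjusted p under 0.05 (edgeR) in any comparison. The genes named from them were chosen after their values were seen. In AG-KO against WT 16 of the 86 genes (18.6%) were at an unadjusted p under 0.05, against 14.4% of all genes, and without AG-KO replicates 3 and 4 there were 3 (3.49%), against 7.42%. By list, with all mice, 4 of 13 genes of the tricarboxylic acid cycle were lower and 1 higher at an unadjusted p under 0.05, with a median log2 fold change of 0.02. Among them Dld, a dehydrogenase shared by several mitochondrial complexes, had a log2 fold change of -0.37 and an adjusted p of 0.120 (edgeR). Of 17 genes of mitochondrial RNA processing and turnover 4 were lower and 1 higher, among them Mtpap, the mitochondrial poly(A) polymerase, at -0.32. Of 9 regulators of mitochondrial genes 2 were higher and 0 lower, and of 19 complex IV assembly factors 1 was higher and 1 lower. Of 7 further complex I assembly factors 1 was lower, as was 1 of 2 cytochrome c genes, and none of the 7 replication genes, 10 transcription genes and 2 rRNAs of the mitochondrial genome was at an unadjusted p under 0.05.

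In NG-KO against WT 9 of these 86 genes (10.5%) were at an unadjusted p under 0.05, against 9.16% of all genes. Of them 5 were complex IV assembly factors, all higher, of 19 in that list. In Δ3102 against WT 6 (6.98%) were, against 4.45% of all genes. These included 3 of 9 regulators, all lower, among them Gabpa, a subunit of an ETS factor that activates nuclear genes of oxidative phosphorylation, with a log2 fold change of -1.0 and an adjusted p of 0.424 (edgeR). In AG-KO against NG-KO 16 (18.6%) were, 11 lower and 5 higher, against 14.1% of all genes, and without AG-KO replicates 3 and 4 there were 5 (5.81%), against 7.45%. With all mice the lower genes were 3 complex IV assembly factors, 3 genes of the tricarboxylic acid cycle, 2 of RNA processing, and 1 each of cytochrome c, transcription and rRNA. The higher ones were 3 regulators, 1 replication gene and 1 gene of the tricarboxylic acid cycle. Among the regulators the coactivator gene Ppargc1b had a log2 fold change of 1.08 and an adjusted p of 0.139 (edgeR).

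The promoters of the nuclear members were searched for letters of 3 factors known for this family. Windows from 250 bases before to 50 bases after the start site came from RefSeq on GRCm38.p6, for 74 of the 97 names of nuclear members and 79 windows in all. The letters GCGCATGCG of NRF1 were in 10 of the 79 (12.7%), against 1.75% of all 32851 windows of this length. The letters CCGGAAG of ETS factors such as GABPA were in 18 (22.8%), against 8.86%, and AAGATGGC of YY1 in 10 (12.7%), against 2.75%. Both strands were searched, and matches to the last 2 can share the bases AAG. A match describes letters and not the binding of a factor. The windows compared were not limited to the genes tested here. Whether matches went with the values in any mouse was not tested.

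Promoters of 5 members, chosen after the values were seen, are shown to set the steadiest nuclear member (Cox6a1) and the most abundant (Cox6b1) beside a core subunit of complex I (Ndufs3), a gene with a YY1 match (Atp5j) and a muscle isoform (Cox8b). They run 5′ to 3′ on the strand of the gene, with matches to the 3 motifs in capitals. All 5 genes lie on the minus strand, with the windows chr5:115348909-115349208 (Cox6a1), chr7:30626065-30626364 (Cox6b1), chr2:90904672-90904971 (Ndufs3), chr16:84834927-84835226 (Atp5j) and chr7:140900397-140900696 (Cox8b). The window of Cox8b held none of the letters. Atp5j had another window, chr16:84835576-84835875, which also held none, and the window with more matches is shown.
Cox6a1: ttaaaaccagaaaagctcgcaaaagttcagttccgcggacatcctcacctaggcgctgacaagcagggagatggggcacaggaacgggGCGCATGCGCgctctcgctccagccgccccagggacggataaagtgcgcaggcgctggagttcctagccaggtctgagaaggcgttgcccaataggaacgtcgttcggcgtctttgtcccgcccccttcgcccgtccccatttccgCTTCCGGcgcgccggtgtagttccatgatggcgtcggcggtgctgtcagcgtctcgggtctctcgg
Cox6b1: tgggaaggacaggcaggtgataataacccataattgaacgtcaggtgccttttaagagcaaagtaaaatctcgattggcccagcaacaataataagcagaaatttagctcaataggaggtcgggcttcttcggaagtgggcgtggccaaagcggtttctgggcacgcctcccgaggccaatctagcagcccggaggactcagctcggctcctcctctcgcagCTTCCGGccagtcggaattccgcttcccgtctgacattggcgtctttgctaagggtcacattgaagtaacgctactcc
Ndufs3: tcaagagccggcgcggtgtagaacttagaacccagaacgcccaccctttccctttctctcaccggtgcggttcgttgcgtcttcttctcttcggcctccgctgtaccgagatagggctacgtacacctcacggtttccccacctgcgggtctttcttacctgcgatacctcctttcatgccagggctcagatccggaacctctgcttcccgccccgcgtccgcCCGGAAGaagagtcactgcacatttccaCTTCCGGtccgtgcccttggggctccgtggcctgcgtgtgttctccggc
Atp5j: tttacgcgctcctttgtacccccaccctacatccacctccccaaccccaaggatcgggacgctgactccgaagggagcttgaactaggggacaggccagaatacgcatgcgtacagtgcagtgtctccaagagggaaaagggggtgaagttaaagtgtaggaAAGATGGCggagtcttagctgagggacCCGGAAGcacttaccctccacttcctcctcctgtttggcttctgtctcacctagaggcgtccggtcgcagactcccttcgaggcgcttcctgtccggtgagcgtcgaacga
Cox8b: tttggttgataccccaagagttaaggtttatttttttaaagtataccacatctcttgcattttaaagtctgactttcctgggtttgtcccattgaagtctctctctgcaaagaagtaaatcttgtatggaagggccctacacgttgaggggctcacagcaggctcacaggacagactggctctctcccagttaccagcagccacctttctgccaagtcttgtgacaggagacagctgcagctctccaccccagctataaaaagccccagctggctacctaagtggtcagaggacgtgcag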

How the data were processed

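RNA of the hippocampus of 14 mice, 1 library each, was sequenced by the authors as poly(A) RNA with a dUTP kit and unique molecular identifiers. Per the labels, reads were trimmed with cutadapt 1.9, aligned to GRCm38 with HISAT2 2.0.4, freed of duplicates with UMI-tools and assembled with StringTie 1.3.4d. The authors deposited whole-number read counts per gene and FPKM for the same genes, and the program and strand setting behind the counts are not given in the sources used here, so overlapping and antisense genes are uncertain. Replicates are separate mice, as the labels give them.

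Counts were fitted with edgeR 4.0.16 (quasi-likelihood test, TMM, all 14 libraries, 1 mean per genotype) in R 4.3.3, over 18059 genes with at least 0.5 FPKM in 3 or more libraries, with Benjamini-Hochberg adjustment and a threshold of 0.05. Two-sided tests compared each knockout with WT, and AG-KO with NG-KO. Library totals were 44527024 to 62669865 counts. The parts of counting and of differences between mice in the spread of the members were not tested. Tested on simulated data for AG-KO against WT over 18059 genes, the fit called 53 of 100 genes changed by 1 and 81 of 100 changed by 2 on the log2 scale. The changed genes had mean counts above 100 and the same change in every AG-KO mouse. Recovery of smaller changes, or of changes in only some mice of a group, was not tested. Values per mouse are FPKM, and log2 values against the mean of WT used a pseudocount of 0.1. Spliced lengths came from GENCODE vM21, in which all 55450 identifiers were found.

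Alternatives were no filter, a filter of 1 FPKM, RLE factors, library sizes without mitochondrial genes, DESeq2 1.42.0, limma 3.58.1 on log2(FPKM + 0.1), log2(FPKM + 0.01) and log2(FPKM + 1), a replicate block, fits of the compared genotypes alone and each library left out. Another 2 were chosen after seeing the data, namely leaving out both AG-KO libraries 3 and 4, and an offset for transcript length. Members, pathway lists and marker lists were chosen with earlier results of these data known. The text names the mitochondrially encoded members, the tissue isoforms with their partners, the 5 nuclear members at each end of mean FPKM and of the coefficient of variation, and, per comparison and direction, up to 6 members with the smallest p under 0.05 whose groups did not overlap and whose mean reached 1 FPKM in the higher group. Python 3.11.15 served for tables (pandas 2.3.3, NumPy 2.4.6) and plots (matplotlib 3.10.9).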

Additional observations from a re-analysis of the deposited data

Results flagged for a closer look

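In 91 groups of 4 mice, single values were compared with the spread of their own group, and 3 lay far from the other mice of the group by Dixon's criterion, which chance meets in about 1 in 20 groups. Ndufa11b was at 0.175 FPKM in NG-KO replicate 3 and at the floor in the other NG-KO mice. Cox8c was at 2.86 FPKM in AG-KO replicate 2, while the other AG-KO mice were at the floor. Ndufa4 was at 152 FPKM in NG-KO replicate 2, against 76.2 to 85.9 FPKM in the other NG-KO mice. In none of the genes examined did all mice of a pair of genotypes move in opposite directions from WT.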

How the results depend on the processing

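With edgeR no member passed an adjusted p under 0.05 with all 14 libraries. DESeq2 called 4 of 109 members in AG-KO against WT and 3 in AG-KO against NG-KO. Over all 18059 genes it called 408 and 430. Leaving out 1 library gave 0 to 1 called in AG-KO against WT (Cox7b without AG-KO replicate 2) and 0 to 3 in AG-KO against NG-KO (Cox7b, Ndufa6 and Sdhd without AG-KO replicate 2, Atp5mpl without Δ3102 replicate 3). Without AG-KO replicate 2 the calls over all 18059 genes were 82 and 297 in these 2 comparisons. Without Δ3102 replicate 3 they were 20 in AG-KO against NG-KO.

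Counts of members at an unadjusted p under 0.05 moved more. In Δ3102 against WT (0 members) there were 4 with only the compared genotypes fitted, 3 without AG-KO replicates 3 and 4, 1 with the length offset, and 0 to 2 with 1 library left out. In AG-KO against WT (29) there were 13, 7, 13 and 9 to 57 under the same 4 settings. The 29 were 26.6% of the members, against 14.4% of all genes. With only the compared genotypes the 13 were 11.9%, against 11.9% of all genes. The 9 were 8.26%, against 11.0% of all genes, and the 57 were 52.3%, against 16.9%. In NG-KO against WT (3) there were 5 with only the compared genotypes, 5 without AG-KO replicates 3 and 4 and 2 to 5 with 1 library left out. In AG-KO against NG-KO (32) the same 3 settings gave 20, 7 and 12 to 60. The 12, found without AG-KO replicate 3 or replicate 4, were 11.0%, against 9.30% and 10.2% of all genes. The 60 were 55.0%, against 15.6%. With only the compared genotypes the shares were 18.3% against 11.6% of all genes here. They were 3.67% against 4.91% in Δ3102 and 4.59% against 9.25% in NG-KO against WT.

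The mitochondrial minus the nuclear median log2 fold change, 0.64 in AG-KO against WT and 0.54 in AG-KO against NG-KO, was -0.16 and -0.18 without AG-KO replicates 3 and 4, and the log2 ratio of sums was -0.18 and -0.25. With 1 library left out the median difference was -0.25 to -0.11 in Δ3102, 0.39 to 0.94 in AG-KO and -0.14 to 0.16 in NG-KO against WT, and 0.29 to 0.82 in AG-KO against NG-KO. The log2 ratio of sums was 0.25 to 0.76 for AG-KO and -0.04 to 0.18 for NG-KO minus WT, and 0.17 to 0.69 for AG-KO minus NG-KO. Over 14 named members and comparisons with 26 alternatives each, 356 of 364 values kept their direction and side of the threshold, 8 passed it and 0 changed sign. These 14 were chosen for a small p and groups that did not overlap. Leaving out mice could therefore hardly change their sign, so its constancy says little. None was called in the main fit, so keeping the side of the threshold meant staying uncalled. The causes of the shifts between settings were not tested.

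With the replicate block 0 members were called in each comparison. At an unadjusted p under 0.05 there were 1, 25, 3 and 34 in Δ3102, AG-KO and NG-KO against WT and in AG-KO against NG-KO. These were 0.917%, 22.9%, 2.75% and 31.2%, against 4.05%, 11.1%, 7.05% and 13.3% of all genes. The median differences were -0.17, 0.58, 0.03 and 0.51. Over 19 same-numbered pairs the deviations from the group means correlated at -0.226 to 0.218 and 6 exceeded 0.1, so the numbers were not taken as pairing. Groups of 3 or 4 mice limit what these tests can call.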
